A study of Mus musculus with 18 samples.

Results

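The killer cell lectin-like receptors were followed here in thymocytes of ageing mice through every non-control probe whose gene name on the array was Klra1, Klra3, Klra7, Klra8, Klrb1c, Klrc1, Klrd1, Klre1, Klrg1 or Klrk1. This rule found 9 of the 41174 distinct probes, for 7 of the 10 genes; the array names 12312 genes in all. Klra8, Klrc1, Klrd1, Klrg1 and Klrk1 had 1 probe each and Klrb1c and Klre1 had 2 each, while no probe carried the name Klra1, Klra3 or Klra7. After the values were seen, 7 more probes were added that carry another name but list a RefSeq accession of one of the 10 genes, and they are reported apart from the 9.

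The material was isolated thymocytes of C57BL/6 mice, made by dissociating the thymus, straining the cells and lysing red cells, with no sort for any cell type. Each of 9 Agilent 2-colour arrays carried RNA of 1 mouse in Cy3, from 3 mice each at 6, 16 and 24 months of age, and RNA of 1 month old mice in Cy5. The design text calls the 1 month material a pool, as it is called below, whereas the sample labels number 9 single mice of 1 month, a difference that the scanner files leave unresolved. No array had the dyes swapped, so a comparison of an age with the pool is also a comparison of Cy3 with Cy5, and its test leaves out any spread between 1 month mice.

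Killer cell lectin-like receptors are surface proteins of natural killer cells and of some T cells, including innate-like and memory CD8 T cells. Those of the Ly49 group, encoded by the Klra genes, mostly bind class I MHC molecules, and they come in inhibitory forms, which carry a motif that recruits phosphatases, and activating forms, which signal through the adaptor DAP12 (Tyrobp). The CD94 chain (Klrd1) pairs with NKG2A (Klrc1) or its relatives to read the nonclassical class I molecule Qa-1, and NKG2D (Klrk1) reads stress-induced ligands. Klrb1c encodes NK1.1, the antigen used to mark natural killer and natural killer T cells of this strain, and Klrg1 encodes a cadherin receptor found on effector lymphocytes. All of these genes lie on mouse chromosome 6, and the genes other than Klrg1 lie close together in the natural killer gene complex.

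The Klra genes are close copies of each other, which bears on what a probe can tell apart. The probe sequences themselves were not used here. The 250 bases before the start site of 3 of the genes, from RefSeq on GRCm38.p6, are shown because 1 probe below (U09739) lists Klra3 and Klra9 together, while others list Klra7, and they show how alike the copies are. They are upstream sequence and not what the probes measured. Capitals mark bases of Klra9 and Klra7 that differ from the base of Klra3 they align with.
Klra3, chr6:130337627-130337876, minus strand: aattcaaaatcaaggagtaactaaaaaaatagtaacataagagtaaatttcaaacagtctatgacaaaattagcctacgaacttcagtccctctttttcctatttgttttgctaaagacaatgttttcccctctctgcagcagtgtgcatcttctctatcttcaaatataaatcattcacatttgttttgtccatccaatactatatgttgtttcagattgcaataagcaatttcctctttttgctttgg
Klra9, chr6:130193113-130193362, minus strand: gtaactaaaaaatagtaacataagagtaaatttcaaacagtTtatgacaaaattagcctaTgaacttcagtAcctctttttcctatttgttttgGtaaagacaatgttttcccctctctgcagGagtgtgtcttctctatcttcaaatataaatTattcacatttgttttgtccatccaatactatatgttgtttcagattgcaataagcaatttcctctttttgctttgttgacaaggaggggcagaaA
Klra7, chr6:130233323-130233572, minus strand: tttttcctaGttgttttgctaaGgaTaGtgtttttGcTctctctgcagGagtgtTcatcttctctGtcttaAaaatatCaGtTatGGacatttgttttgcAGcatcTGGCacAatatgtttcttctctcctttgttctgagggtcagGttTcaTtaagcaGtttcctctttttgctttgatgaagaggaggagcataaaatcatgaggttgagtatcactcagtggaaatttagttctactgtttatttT
Klra9 aligned with Klra3 over 231 bases, of which 7 differed (97.0% identity), and Klra7 over 157 bases, of which 27 differed (82.8% identity). Bases set against a gap are left out of these percentages. The windows were aligned from end to end, so the last capital of Klra9 and of Klra7 follows a stretch set against a gap. Upstream windows were found for 8 of the 10 genes. Klra1 was less like the others in this window, at 55.6% identity with Klra3 over 214 aligned bases.

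The accessions listed for the probes show the same overlap. The probe named U09739 lists Klra3, Klra9 and Klra10. A probe named Klra16 lists Klra1 and Klra16, and the probe named AF109783 lists Klrc1, Klrc2 and Klrc3. The probes named Klra23 and NAP106713-1 list Klra7, and for Klra23 the other accessions listed had no match in the gene table. The probes named ENSMUST00000063052 and Klra12 (A_51_P468308) list Klra3. A ratio from any Klra or Klrc probe is therefore uncertain as to the gene, and probes without a listed relative may still have bound transcripts of one.

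Between 79.6% and 94.2% of the features of an array were well above background in Cy3, with the lowest share on 24 month replicate 2. After a filter on dim probes 37448 probes were tested, and all 9 receptor probes passed it. Of these, 7 were well above background in both dyes on all 9 arrays, and Klrg1 and Klrk1 in Cy3 on 8 of 9 and in Cy5 on all. None was saturated. Values below are log2 ratios of the older mouse over the pool, so that 1 is a doubling, with the SE from limma for a mean of 3 arrays, and the threshold for a call was an adjusted p of 0.05. The number of arrays limits the precision.

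At 16 months 3 of the 9 receptor probes were higher than the pool and 0 were lower: Klra8, Klrk1 and 1 of the 2 Klre1 probes. Over all tested probes 24.4% were called at this age, 13% as higher and 11.4% as lower. The split of these calls moved with the scaling, from 53.2% higher to 63.4% with Agilent's processed signals and 41.4% with median centring of the arrays in place of loess. At 24 months 1 of the 9 was higher (Klrk1) and 1 was lower (Klrg1), where 21.5% of all probes were called, 9.92% as higher and 11.5% as lower. At 6 months 0 of the 9 were called, against 16.6% of all probes (8.94% higher and 7.67% lower), while 2 had an unadjusted p under 0.05, as had 34.5% of all probes. The median log2 ratio of the 9 probes was -0.02 at 6 months, 0.14 at 16 months and 0.02 at 24 months, beside a median of -0.01 over all tested probes at each age. With normexp at an offset of 50 and loess, the largest called change of the 9 was 1.38-fold.

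**Figure D1:**
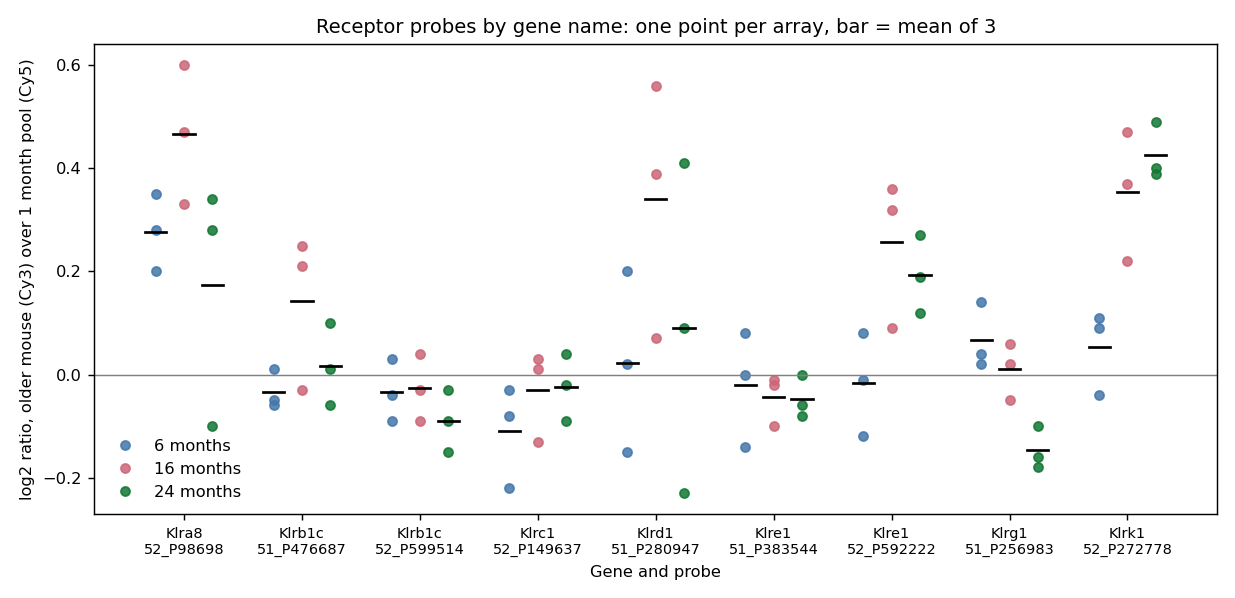
Log2 ratio of the older mouse over the 1 month pool (vertical axis) for the 9 probes found by gene name (horizontal axis), with 1 point per array coloured by age and a bar at the mean of 3. Klrk1 lies above 0 on all 6 arrays of 16 and 24 months, Klra8 on 8 of 9 arrays, and Klrg1 below 0 on all 3 arrays of 24 months.

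Klrk1, the activating receptor NKG2D, gave log2 ratios of 0.09, 0.11 and -0.04 at 6 months, 0.37, 0.47 and 0.22 at 16 months, and 0.40, 0.49 and 0.39 at 24 months. Every array of the later ages lay above every array of 6 months. The mean was 0.36 at 16 months (SE 0.05, adjusted p = 0.00324, 1.28-fold) and 0.43 at 24 months (SE 0.05, adjusted p = 0.0020, 1.34-fold), and 0.05 at 6 months (adjusted p = 0.512). With median centring in place of loess the means were 0.82 at 6 months (adjusted p = 0.0160), 0.94 at 16 months and 1.22 at 24 months, all called, so the low value at 6 months depended on the scaling. This is a dim probe: its processed Cy3 signal ranged from 94.7 to 273 and its processed Cy5 signal from 66.3 to 153. With a normexp offset of 16 in place of 50 and the same loess, the means at 16 and 24 months were 0.62 and 0.78, and both were called. Agilent's processed signals gave 1.68, 1.62 and 0.91 at 16 months and 1.39, 1.55 and 1.31 at 24 months, with means of 1.40 (adjusted p = 0.00349) and 1.42 (adjusted p = 0.00341). At 6 months they gave 0.31, 0.78 and 0.00, with a mean of 0.36 (adjusted p = 0.203).

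Klra8, the activating receptor Ly49H that recognises a mouse cytomegalovirus protein, gave 0.35, 0.20 and 0.28 at 6 months, 0.60, 0.47 and 0.33 at 16 months, and 0.28, -0.10 and 0.34 at 24 months. It was above 0 on 8 of 9 arrays, and the ages overlapped. The mean was 0.46 at 16 months (SE 0.08, adjusted p = 0.00668), with 0.28 at 6 months (adjusted p = 0.0554) and 0.17 at 24 months (adjusted p = 0.173). The low array of the oldest age was 24 month replicate 2, which also had the smallest share of features above background in Cy3. Without it the 24 month mean was 0.31 (adjusted p = 0.0292), and the 6 month value passed the threshold (adjusted p = 0.0196). The 6 month value also passed when the 6 month arrays were fitted alone (adjusted p = 0.0298).

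Klre1 encodes a receptor that needs a partner chain at the cell surface. Its probe A_52_P592222 gave -0.12, -0.01 and 0.08 at 6 months, 0.36, 0.32 and 0.09 at 16 months, and 0.27, 0.19 and 0.12 at 24 months. The mean at 16 months was 0.26 (SE 0.06, adjusted p = 0.0185) and at 24 months 0.19 (SE 0.06, adjusted p = 0.0530). The 16 month call was lost without 16 month replicate 1 (adjusted p = 0.0883), without replicate 2 (adjusted p = 0.120) and with the arrays of that age fitted alone (adjusted p = 0.0775). The 24 month value was called with median centring (0.60, adjusted p = 0.00291) and with a normexp offset of 16 (0.31, adjusted p = 0.0352). It was also called without 16 month replicate 3 (adjusted p = 0.0324). The other Klre1 probe, A_51_P383544, for which no RefSeq accession was listed, stayed between -0.14 and 0.08 on the 9 arrays and was not called at any age. The probes did not follow each other (r = 0.06 over the 9 arrays, as a description), so the higher value rests on 1 of the 2 probes.

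Klrd1, the CD94 chain, varied more between mice of one age than any other of the 9 probes. It gave 0.02, -0.15 and 0.20 at 6 months, 0.56, 0.39 and 0.07 at 16 months, and 0.41, -0.23 and 0.09 at 24 months. The means of 0.34 at 16 months (SE 0.13, adjusted p = 0.0781), 0.02 at 6 months (adjusted p = 0.913) and 0.09 at 24 months (adjusted p = 0.640) did not pass. Its inhibitory partner Klrc1 (NKG2A) stayed between -0.22 and 0.04 on the 9 arrays, with means of -0.11, -0.03 and -0.02 at 6, 16 and 24 months, none of which passed. The AF109783 probe, which lists Klrc1 with Klrc2 and Klrc3, had means of 0.01, 0.02 and 0.05 and did not pass either.

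The main NK1.1 marker of this strain, Klrb1c, was not called at any age with either probe after loess. Probe A_51_P476687 gave -0.05, -0.06 and 0.01 at 6 months, 0.25, 0.21 and -0.03 at 16 months, and 0.10, -0.06 and 0.01 at 24 months. Its mean at 16 months was 0.14 (SE 0.06, adjusted p = 0.0950), and without 16 month replicate 3 it was 0.23 (adjusted p = 0.0241). Probe A_52_P599514 stayed between -0.15 and 0.04. The pair correlated at r = 0.40 over the 9 arrays, as a description. At 24 months the mean of A_51_P476687 was 0.02 after loess but -0.60 when arrays were centred on their median (adjusted p = 0.00468), -0.45 at 6 months (adjusted p = 0.0263) and -0.24 at 16 months (adjusted p = 0.162), so its direction depended on the scaling.

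Klrg1 gave 0.14, 0.04 and 0.02 at 6 months, 0.06, 0.02 and -0.05 at 16 months, and -0.10, -0.18 and -0.16 at 24 months. All arrays of 24 months lay below all others. The mean at 24 months was -0.15 (SE 0.04, adjusted p = 0.0296, 1.11-fold lower), but with median centring in place of loess it was 0.43 (adjusted p = 0.00574), beside called values of 0.39 at 6 months and 0.37 at 16 months, so this direction depended on the scaling. Agilent's processed signals, normalized by their own dye fit, gave -0.34, -1.24 and -0.40 at 24 months (mean -0.66, adjusted p = 0.0217). The call was lost without any one of the 24 month arrays, with adjusted p of 0.0742, 0.117 and 0.0989 without replicates 1, 2 and 3, and with that age fitted alone (adjusted p = 0.102). The probe was dim, with a processed Cy3 signal of 97.3 on 24 month replicate 2 and up to 342 elsewhere.

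In the loess values used above, probes listing Klra7 had the largest mean ratios at each age among the 16 probes of the 10 genes. Klra7 encodes the inhibitory receptor Ly49G. This order depended on the setting. With Agilent's processed signals Klrk1 gave 1.39, 1.55 and 1.31 at 24 months, beside 1.13, 0.92 and 1.79 for NAP106713-1. At 16 months NAP106713-1 stayed higher, at 2.19, 1.97 and 0.95 beside 1.68, 1.62 and 0.91 for Klrk1. With median centring at 6 months Klrk1 was at 0.82, beside 0.80 for NAP106713-1 and 0.18 for Klra23. After loess the NAP106713-1 probe gave 0.58, 0.40 and 0.54 at 6 months, 1.43, 1.09 and 0.54 at 16 months, and 0.46, 0.24 and 1.01 at 24 months. It was above 0 on 9 of 9 arrays, and the ages overlapped. Its mean at 16 months was 1.02 (SE 0.17, adjusted p = 0.00474, 2.03-fold). The mean of 0.57 at 24 months (SE 0.17, adjusted p = 0.0434) no longer passed without 24 month replicate 3, at 0.35 (adjusted p = 0.205), replicate 1 (adjusted p = 0.122) or replicate 2 (adjusted p = 0.0509). It was also lost without 6 month replicate 1, 2 or 3 (adjusted p = 0.0570, 0.0654 and 0.0599), without 16 month replicate 2 (adjusted p = 0.0615) and with that age fitted alone (adjusted p = 0.0791). The mean at 6 months was 0.51 (SE 0.17, adjusted p = 0.0713), and with Agilent's processed signals, which gave larger values for this probe, it was 1.00 (adjusted p = 0.0383) at 6 months, 1.71 (adjusted p = 0.0052) at 16 months and 1.28 (adjusted p = 0.0114) at 24 months. The 6 month value was also called with median centring (0.80, adjusted p = 0.0136), a normexp offset of 16 (0.75, adjusted p = 0.0466) and the authors' scores (adjusted p = 0.0315). It passed as well with that age fitted alone (adjusted p = 0.0147), and without 16 month replicate 1 or 3 or 24 month replicate 3 (adjusted p = 0.0482, 0.0415 and 0.0484).

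The other Klra7 probe, named Klra23, gave 0.50, 0.33 and 0.52 at 6 months, 0.75, 0.66 and 0.58 at 16 months, and 0.43, 0.44 and 0.80 at 24 months. It was called higher at each age, with means of 0.45 (SE 0.07, adjusted p = 0.00868), 0.67 (SE 0.07, adjusted p = 0.00126) and 0.56 (SE 0.07, adjusted p = 0.00258). With median centring the means stayed above 0, at 0.18, 0.41 and 0.17, but those of 6 and 24 months were no longer called (adjusted p = 0.273 and 0.275).

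Of the probes listing Klra3 (the inhibitory receptor Ly49C), U09739 was called at 16 months and the others at no age after loess. U09739 gave 0.33, 0.17 and 0.27 at 6 months, 0.75, 0.29 and 0.22 at 16 months, and 0.17, 0.12 and 0.50 at 24 months. Its mean at 16 months was 0.42 (SE 0.10, adjusted p = 0.0214), and 0.25 without 16 month replicate 1 (adjusted p = 0.0846), 0.48 without replicate 2 (adjusted p = 0.0651). ENSMUST00000063052 and Klra12 (A_51_P468308), which list Klra3 alone, had 16 month means of 0.11 and 0.02. With median centring U09739 was also called at 6 and 24 months (0.42 and 0.51), as was Klra12 (A_51_P468308, at 0.40 and 0.51), while ENSMUST00000063052 was called lower at those ages (-0.39 and -0.47). The Klra16 probe that lists Klra1 (the inhibitory receptor Ly49A) had means of -0.15, 0.09 and -0.13 at the 3 ages and was not called, but with median centring it was called higher at 24 months (0.33, adjusted p = 0.0413). Probes assigned to the same Klra gene thus gave different ratios. Among the 7 probes, 1 was higher at 6 months, 3 at 16 months and 2 at 24 months, and 0 were lower. Over all tested probes 8.94%, 13% and 9.92% were higher and 7.67%, 11.4% and 11.5% lower at these ages.

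**Figure D2:**
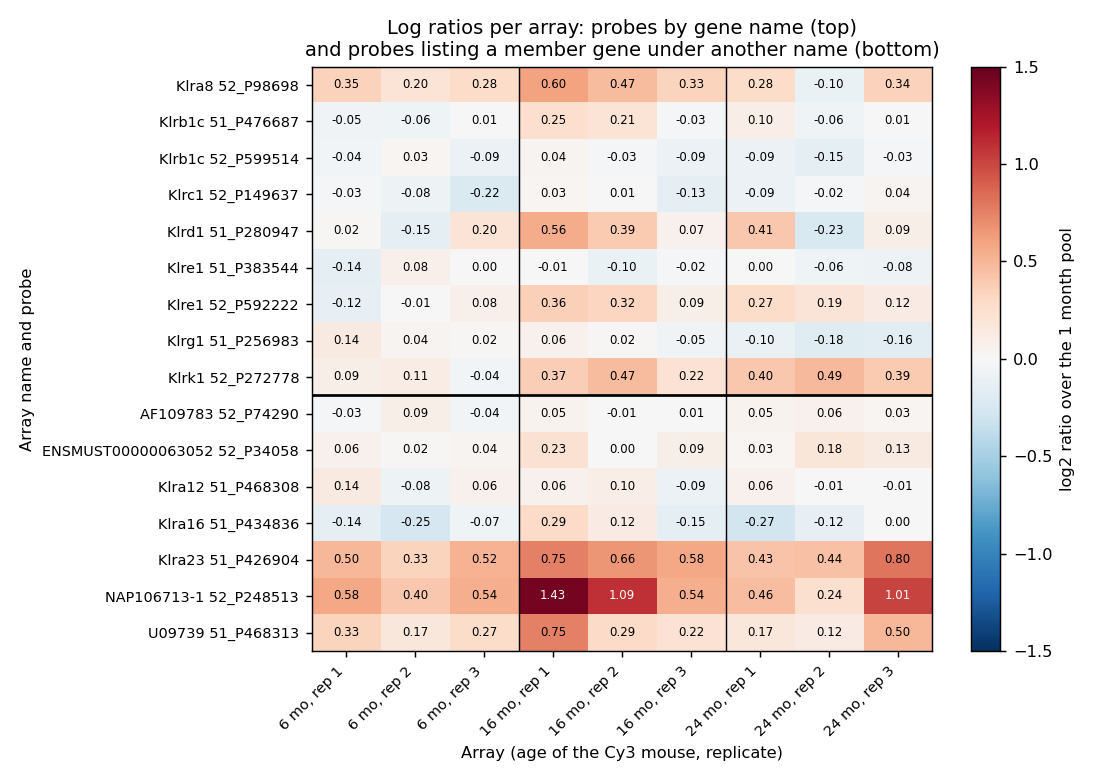
Log2 ratio over the 1 month pool on each of the 9 arrays (columns, by age and replicate) for the 9 probes found by gene name (upper block) and the 7 probes that list one of the genes under another name (lower block), with red above 0 and blue below. The NAP106713-1 and Klra23 probes, both listing Klra7, are above 0 on every array, and 16 month replicate 1 holds the highest value of Klra8, Klrd1 and NAP106713-1.

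No difference between the older ages was called. Among all 37448 probes 0 passed in limma for 16 against 6 months, 24 against 6 months and 24 against 16 months, while 3008, 3190 and 1645 had an unadjusted p under 0.05 (8.03%, 8.52% and 4.39%), and 2, 3 and 2 of the 9 receptor probes did. Agilent's processed signals also gave 0 in each. The greatest difference among the 9 was Klrk1 at 24 against 6 months, of 0.37 (SE 0.07, adjusted p = 0.437). Klrk1 differed by 0.30 between 16 and 6 months (SE 0.07, adjusted p = 0.599), and Klre1 A_52_P592222 by 0.27 (SE 0.09, adjusted p = 0.599). Both probes had all 3 arrays of 16 months, and all 3 of 24 months, above those of 6 months, which held for 6.73% and 5.99% of all tested probes. Klrg1 had all 3 arrays of 24 months below those of 6 months, as did 9.07% of all probes, with a difference of -0.22 (SE 0.05, adjusted p = 0.472) that was 0.032 with median centring, and below those of 16 months, as did 5.42%.

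The order of the mean levels after loess differed between the genes, and neighbouring ages mostly overlapped. None of these differences between ages was called. Klra8, Klrd1 and the NAP106713-1 probe were highest on average at 16 months, and their 24 month arrays overlapped those of 6 months. Klrk1 was lowest at 6 months, and its 16 and 24 month arrays overlapped. Klrg1 was lowest at 24 months, and its 6 and 16 month arrays overlapped. With median centring this order was lost, as the Klrg1 means were 0.39, 0.37 and 0.43 at 6, 16 and 24 months.

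The rest of the receptor family had 24 more probes, of which 21 were tested. At 6, 16 and 24 months 5, 9 and 4 of them were higher than the pool and 2, 3 and 1 lower. Over all tested probes 8.94%, 13% and 9.92% were higher and 7.67%, 11.4% and 11.5% lower. Of the 7, 12 and 5 family calls, 5, 9 and 3 stayed with median centring. With Agilent's processed signals 6, 8 and 5 stayed. Their median was 0.04, 0.12 and 0.11, beside -0.01 over all tested probes at each age. Among the higher probes at 6 and 16 months were Klra22, Klra21, Klra9, Klra6 and NAP103516-1, which lists Klra10. Klra21 gave 0.99, 0.55 and 0.95 at 6 months, 1.10, 1.01 and 0.65 at 16 months, and 0.69, 0.16 and 0.88 at 24 months. NAP103516-1 gave 0.94, 0.65 and 0.79, then 1.36, 0.96 and 0.58, then 0.39, 0.20 and 0.92. Klra22, whose probe lists Klra4, had means of 0.52, 0.86 and 0.49 at the 3 ages. Klra6 had means of 0.40, 0.47 and 0.28, but with median centring 0.15, 0.24 and -0.03, none called. At 16 months 3 probes were called lower: Klra5 at -0.15, A530048J23, which lists Klra17, at -0.15, and a Klrc2 probe (A_52_P244797) at -0.14. Of these, A530048J23 was at 0.31 with median centring, and none was called with Agilent's processed signals (adjusted p = 0.0527, 0.128 and 0.0985). Klra2, lower at 6 months at -0.22, was at 0.45 with median centring. Several of the array's names, such as Klra21, Klra22 and Klra23, belong to receptors described in other mouse strains, which adds to the uncertainty of which transcript was bound.

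**Figure D3:**
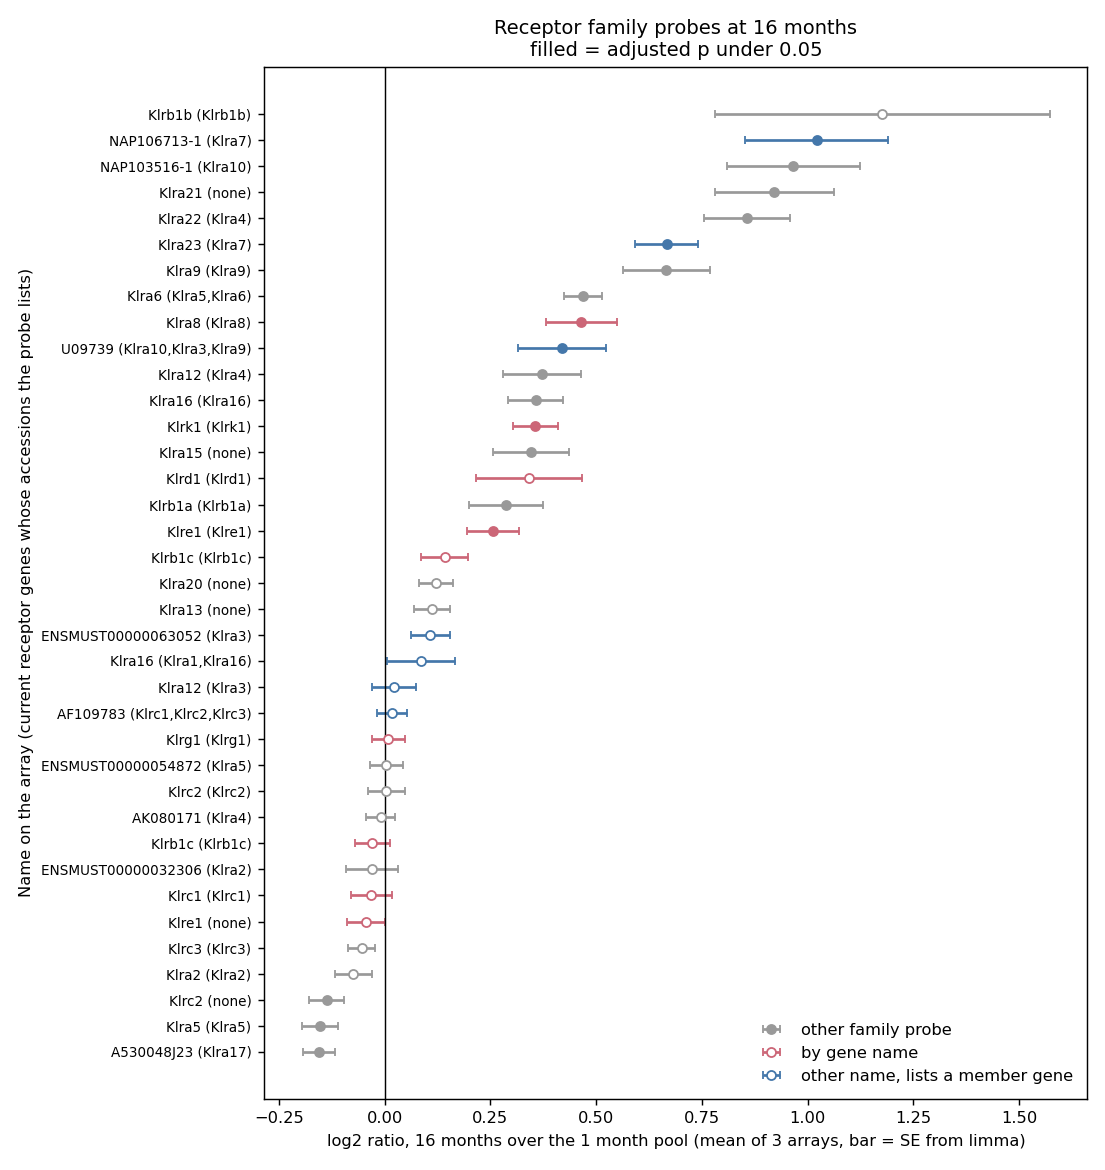
Mean log2 ratio of 16 months over the 1 month pool with its SE (horizontal axis) for each tested receptor family probe (vertical axis, with the array name and the current genes it lists in brackets), filled where the adjusted p is under 0.05. The probes above 0.40 are named for or list a Klra gene, apart from Klrb1b at the top, whose SE of 0.40 is the widest and which did not pass (adjusted p = 0.0598). Klrb1b passed the filter on dim probes only through its Cy3 signals at this age.

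Of 10 tested ligand genes of these receptors, 2, 3 and 4 were higher at 6, 16 and 24 months and 0 were lower, with medians of 0.00, 0.06 and 0.07. All tested probes were higher in 8.94%, 13% and 9.92% of cases and lower in 7.67%, 11.4% and 11.5%. H2-D1, a classical class I heavy chain read by Ly49 receptors, had a log2 ratio of 1.25 at 16 months (SE 0.18, adjusted p = 0.00289) and 0.98 at 24 months (adjusted p = 0.00779). H2-T23, which encodes Qa-1, the ligand of CD94 with NKG2A, had 0.49 at 6 months (adjusted p = 0.0403), 0.96 at 16 months (SE 0.13, adjusted p = 0.00274) and 0.81 at 24 months (adjusted p = 0.00576). Clec2d, a lectin-like ligand of the Klrb1 group, had 0.91, 0.56 and 0.52 and was called at each age. With median centring H2-T23 was at -0.15, 0.32 and -0.25 at 6, 16 and 24 months, none called (adjusted p = 0.323 at 16 months), and its 6 month call was also lost with Agilent's processed signals (adjusted p = 0.0596). In that centring H2-D1 was no longer called at 16 and 24 months (0.72 and 0.13), and Clec2d not at 24 months (0.27). Cdh1, which encodes the cadherin bound by KLRG1, was called at 24 months alone, at 0.44 (adjusted p = 0.0459), and not with Agilent's processed signals (adjusted p = 0.106).

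Of 13 tested adaptor and signalling genes, 2, 3 and 3 were higher and 1, 2 and 1 lower at 6, 16 and 24 months. The shares over all tested probes were 8.94%, 13% and 9.92% higher and 7.67%, 11.4% and 11.5% lower. The kinase gene Zap70 had 0.52, 0.68 and 0.48, and Vav1, an exchange factor downstream of activating receptors, had 0.70, 0.77 and 0.63, all called; with median centring none of these values was called, and Zap70 was at -0.01 at 24 months. Syk was higher at 16 months (0.30, adjusted p = 0.0149) and 24 months (0.22, adjusted p = 0.0489). The adaptor gene Sh2d1a fell by 0.29 at 16 months (adjusted p = 0.0242) and by 0.41 at 24 months (adjusted p = 0.00756). The Eat2 probe of this list was called lower at 6 and 16 months, at -0.30 each. With median centring it was at -0.11 and -0.18, neither called. Tyrobp, the DAP12 adaptor of the activating Ly49 receptors, had -0.04 at 16 months (adjusted p = 0.881) and 0.08 at 24 months (adjusted p = 0.798).

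Other natural killer cell genes were called higher for 6 of 16 at 16 months, with 1 lower, for 3 at 24 months, with 0 lower, and for 0 at 6 months, with 1 lower. Among all tested probes 13% were higher and 11.4% lower at 16 months. The shares were 9.92% and 11.5% at 24 months, and 8.94% and 7.67% at 6 months. Their median at 16 months was -0.02. Il2rb, the shared receptor chain for interleukins 2 and 15, gave 1.17, 1.38 and 0.46 at 16 months, with a mean of 1.00 (SE 0.16, adjusted p = 0.00381). Cd7 had 0.79, the chemokine gene Xcl1 0.48 and the Fc receptor gene Fcgr3 0.39. The lower calls were Cd160 at 6 months (-0.16) and Ncam1 at 16 months (-0.12). With median centring Cd160 was at 0.11, uncalled. Ncam1 was not called with Agilent's processed signals (adjusted p = 0.0636). Of the 1, 7 and 3 calls at 6, 16 and 24 months, 0, 6 and 1 stayed with median centring. With Agilent's processed signals 1, 6 and 3 stayed. At 24 months median centring took Il2rb from 0.51 to 0.04 and Cd244 from 0.22 to 0.06, neither called. The natural killer cell receptor gene Ncr1 had -0.04 at 16 months (adjusted p = 0.722) and 0.16 at 24 months (adjusted p = 0.192), and Itga2 had -0.03 and 0.07, none called.

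Of 14 granule and effector genes, 5 were higher at 16 months and 4 at 24 months, 1 was lower at 24 months, and 0 were called at 6 months. Over all tested probes 13% were higher at 16 months and 9.92% at 24 months. At 24 months 11.5% were lower, and at 6 months 16.6% were called. Nkg7, a granule membrane protein, had 1.26 at 16 months (SE 0.17, adjusted p = 0.00213) and 0.68 at 24 months (adjusted p = 0.0221). The chemokine gene Ccl5 had -0.34 at 6 months (adjusted p = 0.371), 1.11 at 16 months (SE 0.25, adjusted p = 0.0154) and 1.03 at 24 months (adjusted p = 0.0225). The granzyme gene Gzmk had 0.45 at 16 months (adjusted p = 0.00671). The perforin gene Prf1 was lower at 24 months (-0.22, adjusted p = 0.0238), but with median centring it was called higher (0.42, adjusted p = 0.00741). That setting also ended the calls of Nkg7 at 24 months and of Ccl5 at both ages. Ifng was called higher at 16 and 24 months (0.27 and 0.21), but at neither with median centring (0.12 and -0.022). Of the 5 calls at each of these ages, 3 and 1 stayed with median centring. With Agilent's processed signals 5 and 4 stayed. Of 9 transcription factor genes of natural killer and innate T cells, 1, 2 and 2 were higher at 6, 16 and 24 months and 0 lower. Of all tested probes 8.94%, 13% and 9.92% were higher. Gata3 had 0.39 at both 16 and 24 months, but -0.16 (uncalled) and -0.53 (called lower, adjusted p = 0.0441) with median centring. The Idb2 probe had 0.18 at 24 months, but -0.65 with median centring, called lower (adjusted p = 0.00577). Both calls at 24 months thus changed sign. Prdm1 had 0.20 at 16 months (adjusted p = 0.0118). The call at 6 months was Ets1, at 0.76. It stayed called with median centring but not with Agilent's processed signals (1.01, adjusted p = 0.0645).

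Markers of other cells that a thymus suspension can hold moved on the same arrays, and their part in the receptor values was not tested. Of 10 mature and memory T cell markers, 5 were higher at 16 months and 3 at 24 months, with 2 lower at 24 months. Over all tested probes 13% were higher at 16 months, and 9.92% were higher and 11.5% lower at 24 months. With median centring 3 of 5 of these marker calls stayed at each of the 2 ages. Foxp3 at 24 months moved from -0.10, called lower, to 0.43, called higher (adjusted p = 0.0139). The other lower call, Edg1, was lost with Agilent's processed signals (adjusted p = 0.0875). Cxcr6, a chemokine receptor of innate-like and memory T cells, had a mean of 2.54 at 16 months. The mean of this list was 0.05 to 0.24 on the 6 month arrays, 0.47 to 0.89 at 16 months and 0.17 to 0.66 at 24 months. Of 6 plasma cell markers 4 were higher at 16 months, led by Jchain at 2.29, and the list means ran from -0.03 to 0.13, from 0.35 to 0.92 and from 0.25 to 0.67 at the 3 ages. Of 8 B cell markers 2 and of 11 macrophage and dendritic cell markers 2 were higher at 16 months, with list means of 0.07 to 0.28 and of 0.13 to 0.39 on those arrays. Granulocyte markers ranged from -1.07 to 1.16 in list mean at 16 months, where S100a9 was above the pool on replicate 2 alone, and 2 of 9 were lower at 24 months.

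Thymic epithelium markers were lower for 6, 3 and 2 of 8 genes at 6, 16 and 24 months, with Ccl25 at -2.11, -1.94 and -1.49. Of all tested probes 7.67%, 11.4% and 11.5% were lower and 8.94%, 13% and 9.92% higher at these ages. Of 16 thymocyte markers 6, 8 and 7 were higher and 1 lower at each age, that one being Cd8a. With median centring 4 of 7, 5 of 9 and 6 of 8 called thymocyte markers changed sign. The Cd8b1 and Dntt probes were saturated on all 9 arrays. Haemoglobin probes, 4 in number, had mean log2 ratios of -1.75, -1.73 and -1.09 at 6 months, 1.78, 1.19 and -0.67 at 16 months, and -1.71, 0.37 and 1.21 at 24 months. With that mean as a covariate, the Klra8, Klre1 and Klrk1 values at 16 months were 0.44, 0.24 and 0.34, and each was still called. The covariate was not centred, so these values are taken where haemoglobin equals that of the pool. In these bulk samples fewer cells of a type and less RNA per cell cannot be told apart.

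Averaged over 1 probe for each of the 7 genes, the receptors had a mean log2 ratio of 0.05, 0.02 and 0.04 on the 6 month arrays, 0.26, 0.21 and 0.06 on the 16 month arrays, and 0.14, -0.02 and 0.09 on the 24 month arrays. The highest were 16 month replicates 1 and 2, and the lowest was 24 month replicate 2. For Klre1 the probe used was A_51_P383544, which was not called at any age. The genes followed this mean unequally, though each enters it. As a description, r was 0.96 for Klrb1c, 0.92 for Klrd1 and 0.85 for Klra8. It was 0.45 for Klrc1, 0.42 for Klrk1, 0.26 for Klrg1 and -0.10 for Klre1. Among 10580 other genes compared over the 9 arrays, the 8 whose pattern was most like this mean were Dexi, Plek, Tbx21, Psen2, Rabep2, BC004004, Glud1 and Fxyd5, with Pearson r from 0.98 to 0.96. These values are descriptions over 9 arrays that share the reference channel, and the arrays' differences in signal enter all of them alike. Tbx21, which encodes the transcription factor T-bet, followed the pattern over a narrow range, with 16 month values of 0.07, 0.04 and -0.06 and none of its means called. Plek had 0.41, 0.41 and 0.13 at 16 months, and Fxyd5 0.89, 0.81 and 0.49. A like pattern does not mean a like level against the pool. Dexi, the gene with the highest r, was at 0.01 or below on every array. Its means were called lower at 6 months (-0.26, adjusted p = 0.0177) and 24 months (-0.23, adjusted p = 0.0225). Rabep2 had 0.50, 0.13 and -0.13 at 16 months and was below 0 on all arrays of the other ages.

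**Figure D4:**
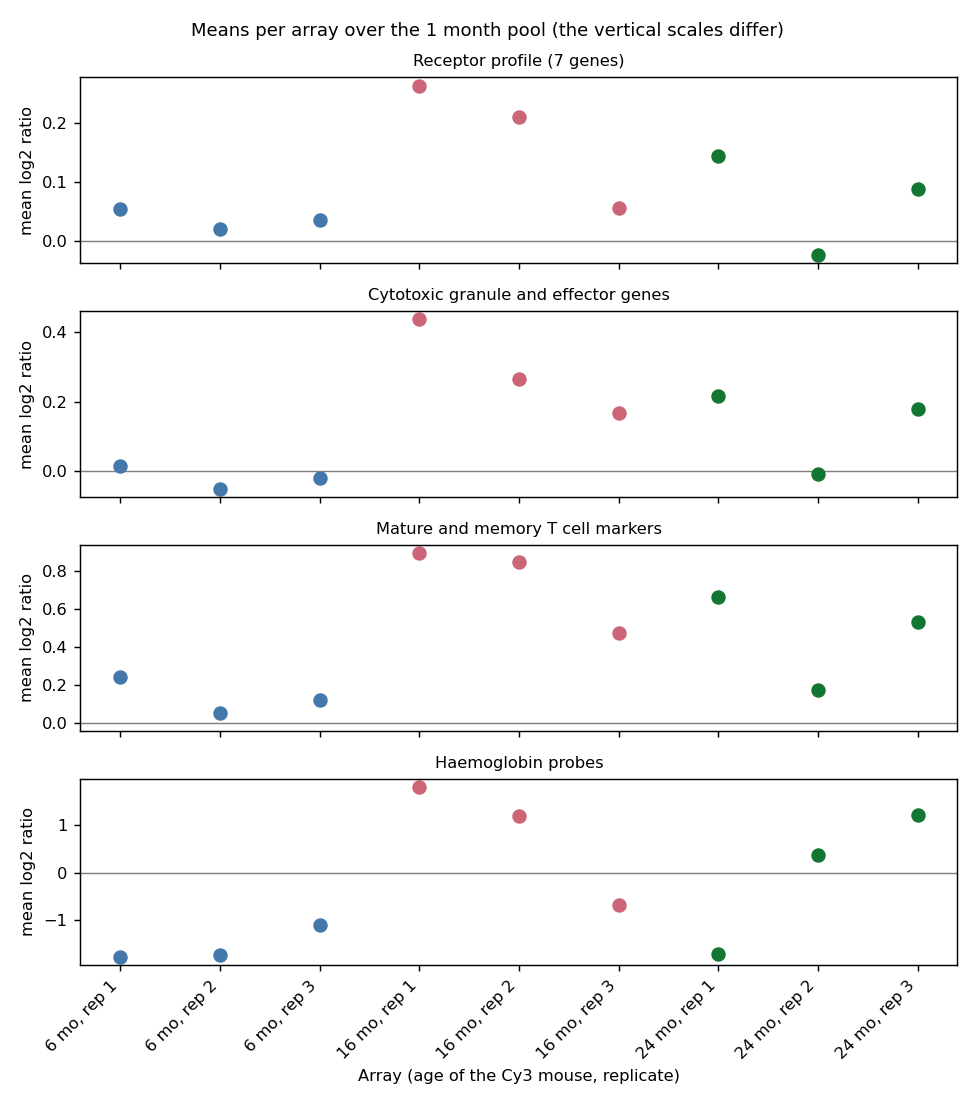
Mean log2 ratio over the 1 month pool on each array (columns, by age and replicate) for the 7 receptor genes, the granule and effector genes, the mature and memory T cell markers and the haemoglobin probes, on panels with different vertical scales. In the upper panels 16 month replicates 1 and 2 are highest and 24 month replicate 2 is the lowest of its age, while haemoglobin on 24 month replicate 1 is low at -1.71.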

How the data were processed

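Per the file headers, the deposited scanner files give intensity in 2 forms: a raw mean with a local background for each spot, and a processed signal from which the authors' software removed background and dye bias (LOWESS, smooth factor 0.25). Agilent Feature Extraction is named as version 7.5.1 in the file headers and as 7.1 in the submitters' processing notes. A genome build is not given in the sources used here. The authors' value table gives each channel a score, found to equal the log10 processed signal minus its mean over its SD. Both samples of an array carry an identical file, so 18 samples are 9 arrays.

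Raw signals were corrected with normexp (offset 50) and log2 ratios of Cy3 over Cy5 normalized by loess within arrays in limma 3.58.1 under R 4.3.3. Spots marked as outliers (34 to 179 per array) were left out and spots of a probe averaged. Probes entered the test when well above background on every Cy3 array of at least 1 age or on every Cy5 array. The 9 arrays entered one fit, with each age's mean as a coefficient and empirical Bayes moderation, and p-values were adjusted by Benjamini-Hochberg over 37448 probes, two-sided, with a threshold of 0.05. The p-values measure the spread between these arrays. The fit was tested on simulated data. Symbols were updated through RefSeq accessions in the GRCm38.p6 gene table. Tables and figures were made in Python 3.11.15 with numpy 2.4.6, pandas 2.3.3 and matplotlib 3.10.9.

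The members and gene lists were chosen with earlier results of these data known. All member probes are described. Of each list mainly those past the threshold with the largest change in a comparison are given, up to 4, or up to 2 with the smallest p. Defining genes such as Ncr1, Itga2 and Tyrobp were added after their values were seen. So were called genes such as Ets1, Eat2, Ifng and Cd160. Fewer were printed for lists of other cell types. The receptor mean takes the probe of highest mean intensity for each gene, and the 8 genes most like it were taken among genes with an SD of at least 0.5 times its own. Same-numbered arrays of different ages had deviations that correlated above 0.1 in 2 of 9 pairs, so the numbers were not taken to pair the mice. Alternatives were Agilent's processed signals, median centring, a normexp offset of 16, other filters on dim probes, the authors' scores, a replicate block, haemoglobin as a covariate, other sets of arrays, outlier spots kept, and each array left out.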

Additional observations from a re-analysis of the deposited data

How the results depend on the processing

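Counts of called probes against the pool moved most with median centring in place of loess, to 19627, 16639 and 26550 of all probes at 6, 16 and 24 months (from 6219, 9124 and 8034), and to 3 and 4 of the 9 receptor probes at 6 and 24 months (from 0 and 2). Median centring leaves in place any trend of the ratio with signal. Haemoglobin as a covariate left 270 probes at 6 months. The covariate was not centred, so each age's value was taken where haemoglobin equals that of the pool. The 6 month arrays lay away from that point, at haemoglobin log2 ratios of -1.75 to -1.09. How much of the lower count comes from this was not tested. Fitting only the arrays of the ages compared, which leaves fewer degrees of freedom, gave 4321 and 4154 probes at 16 and 24 months, 1 receptor probe at 6 and at 24 months, and 1 probe for 24 against 6 months. Requiring both dyes above background on all arrays left Klrg1 and Klrk1 untested, and so 0 receptor probes called at 24 months.

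With each array left out in turn, the counts against the pool ran from 491 to 6516 at 6 months, from 2568 to 9437 at 16 months and from 2348 to 8138 at 24 months. The lowest were without 6 month replicate 2, 16 month replicate 2 and 24 month replicate 1. The receptor counts ran from 0 to 1, from 2 to 4 and from 1 to 3. Between ages 0 to 4 probes were called for 16 against 6 months and 0 to 2 for 24 against 6 months. The replicate block gave 3925 probes at 6 months; it left the receptor counts as they were and ended the call of NAP106713-1 at 24 months (adjusted p = 0.0749). Among 16 probes and 979 values under alternatives, 48 calls were gained or lost, 23 of them with 1 array left out.

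The sign changed in 43 of these values, 38 of which were called under neither setting. Median centring turned Klrg1 at 24 months from called lower to called higher (0.43), and 4 uncalled values into calls of the other sign: Klrb1c A_51_P476687 at 24 months (-0.60), the Klra16 probe A_51_P434836 at 24 months (0.33), and ENSMUST00000063052 at 6 and 24 months (-0.39 and -0.47). It also gave, all uncalled, Klre1 A_52_P592222 0.21, Klrd1 -0.16 and A_51_P434836 0.22 at 6 months, A_51_P476687 -0.24 and ENSMUST00000063052 -0.27 at 16 months, Klrd1 -0.19 at 24 months, and Klrg1 0.032 for 24 against 6 months. The rest stayed uncalled as well. Agilent's processed signals gave Klre1 A_52_P592222 0.027 and AF109783 -0.071 at 6 months, Klrg1 -0.051, Klre1 A_51_P383544 0.0018 and AF109783 -0.039 at 16 months, and Klrc1 0.0046 at 24 months. The authors' scores, in their own units, gave A_52_P592222 0.016, AF109783 -0.032 and ENSMUST00000063052 -0.0012 at 6 months, Klrg1 -0.026 and AF109783 -0.027 at 16 months, and Klrc1 0.0027 and A_51_P476687 -0.017 at 24 months. The haemoglobin covariate gave A_52_P592222 0.023, A_51_P476687 0.013 and A_51_P434836 0.041 at 6 months and A_51_P434836 -0.010 at 16 months. As it was not centred, its 6 month values are taken at a haemoglobin ratio outside the range of the 6 month arrays.

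With each array left out, the values that crossed 0 ran at 6 months from -0.067 to 0.036 for Klre1 A_52_P592222, from -0.072 to 0.037 for A_51_P383544, from -0.064 to 0.11 for Klrd1, from -0.0087 to 0.10 for Klra12 and from -0.034 to 0.034 for AF109783. At 16 months they ran from -0.059 to 0.018 for Klrc1, from -0.014 to 0.037 for Klrg1, from -0.062 to 0.0022 for Klrb1c A_52_P599514, from -0.016 to 0.080 for Klra12 and from -0.015 to 0.21 for A_51_P434836. At 24 months they ran from -0.051 to 0.012 for Klrc1, from -0.073 to 0.25 for Klrd1, from -0.023 to 0.054 for A_51_P476687 and from -0.011 to 0.026 for Klra12. A scan day could not be used as a block, since the arrays share 1 extraction day. The dim probes Klrk1 and Klrg1 are limited by their low signal over background.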

Other observations

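The Klrb1b probe, for an inhibitory relative of NK1.1, had a spread unlike that of the other receptor probes. It gave 0.15, 0.07 and 0.16 at 6 months, 1.45, 2.03 and 0.05 at 16 months, and 1.81, -0.06 and 0.22 at 24 months. Its Cy3 signal was well above background on 4 of 9 arrays, and its Cy5 signal on 5. Its mean of 1.18 at 16 months did not pass (SE 0.40, adjusted p = 0.0598). The probe passed the filter on dim probes only through its Cy3 signals at 16 months, the age where it was highest. Its mean at that age is therefore a description.

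Klrb1a, another relative, gave 0.53, 0.30 and 0.03 at 16 months, with a mean of 0.29 (SE 0.09, adjusted p = 0.0445), and was not called with Agilent's processed signals (0.49, adjusted p = 0.0689).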
